A study of Bos taurus with 6 samples.

Results

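The genes described here are 9 genes of the citrate cycle and of pyruvate dehydrogenase, namely CS, IDH2, IDH3A, OGDH, SUCLG1, FH, MDH2, PDHA1 and PDHB. They were chosen as pathway members by name and matched to the reference gene names of the transcript files, and 8 of the 9 had values among the 17258 genes listed. OGDH was not analysed here. All 8 genes passed the filter on low values (a breed mean of 1 FPKM or more in either breed), as did 9765 genes in all. FPKM counts fragments per kilobase of transcript, scaled to the aligned reads of the library, so levels can be set side by side between genes of different length. Transcripts were added up to give the FPKM of their gene.

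RNA-Seq had been done on the longissimus dorsi of 3 animals of each breed, Shandong black and Luxi cattle, at an age of 18 months, with a library for each animal and no treatment named in the labels. Shandong black is a breed made by combining Japanese black, Luxi and Bohai black cattle, so it carries Luxi ancestry itself. Luxi is a local yellow breed. The labels give no sex, and the Methods name a different supplier for each breed, so breed and supplier cannot be told apart.

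Pyruvate from glycolysis enters the mitochondrion through a carrier and is turned into acetyl-CoA by the pyruvate dehydrogenase complex, which kinases switch off and phosphatases switch on by acting on its E1 alpha subunit. Citrate synthase joins acetyl-CoA to oxaloacetate, and the enzymes of the cycle then oxidise the product step by step back to oxaloacetate, delivering NADH and succinate electrons to the respiratory chain. Oxidative (slow) muscle fibres are known for a high content of these enzymes, and fast glycolytic fibres for a lower one.

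Each library rested on 14.1 to 18 gigabases of aligned sequence, and the 3 Luxi libraries were the deeper ones. All 5 skeletal muscle markers were detected in every animal. Their sum was 38353 to 49082 FPKM in Shandong black cattle, 15522 in Luxi animal 1, and 64706 and 53949 in Luxi animals 2 and 3. Luxi animal 1 also had the highest sum of 4 endothelial markers, 63.4 FPKM. That sum was 22.5 and 31.7 in Luxi animals 2 and 3 and 17.0 to 18.1 in Shandong black cattle. The summed FPKM of 8 detected fast fibre markers was 3111 to 5389 in Shandong black cattle, 4386 in Luxi animal 1, and 29043 and 27120 in Luxi animals 2 and 3. That of 7 slow fibre markers was 25846 to 31973 in Shandong black and 3214 to 13329 in Luxi cattle. MYL2 made up most of that sum, while MYL3 of the same list was higher in every Luxi animal, at 13.1 to 46.4 and 63.5 to 1180 FPKM, and ATP2A2 overlapped. The summed FPKM of 6 fat cell markers was 116 to 180 in Shandong black and 3.09 to 19.2 in Luxi cattle, with LEP at 0 in 1 Luxi animal, and that of 5 fibroblast markers was 109 to 159 and 376 to 502. In whole muscle, fewer cells of a type and less RNA per cell cannot be told apart, and the part of these differences in the values below was not tested.

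Of the 8 genes, PDHA1 was higher in Luxi cattle, by a log2 fold change of 1.38, and no other gene passed the test. Calls required both an adjusted p under 0.05 (limma on log2(FPKM + 1), Benjamini-Hochberg over all 9765 genes) and a doubling or halving, which is 1 on the log2 scale. The share of all tested genes called was 2.55%, and 1.56% were called higher in Luxi cattle. The breeds did not overlap for PDHA1 and IDH3A, 2 of 8 genes, with every Luxi animal above in both, beside 29.1% of all genes tested without overlap in either direction. The same 2 genes had an unadjusted p under 0.05, as did 21.9% of all genes tested. The median log2 fold change of the 8 genes was 0.22, and that of all 9765 genes was 0.13. After scaling by size factors these medians were 0.06 and 0.02, and the log2 fold change of PDHA1 was 1.23. Size factors lowered the log2 fold change of each of the 8 genes. Fold changes given here are without this scaling unless it is named, and so include a general shift toward Luxi cattle.

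**Figure D1:**
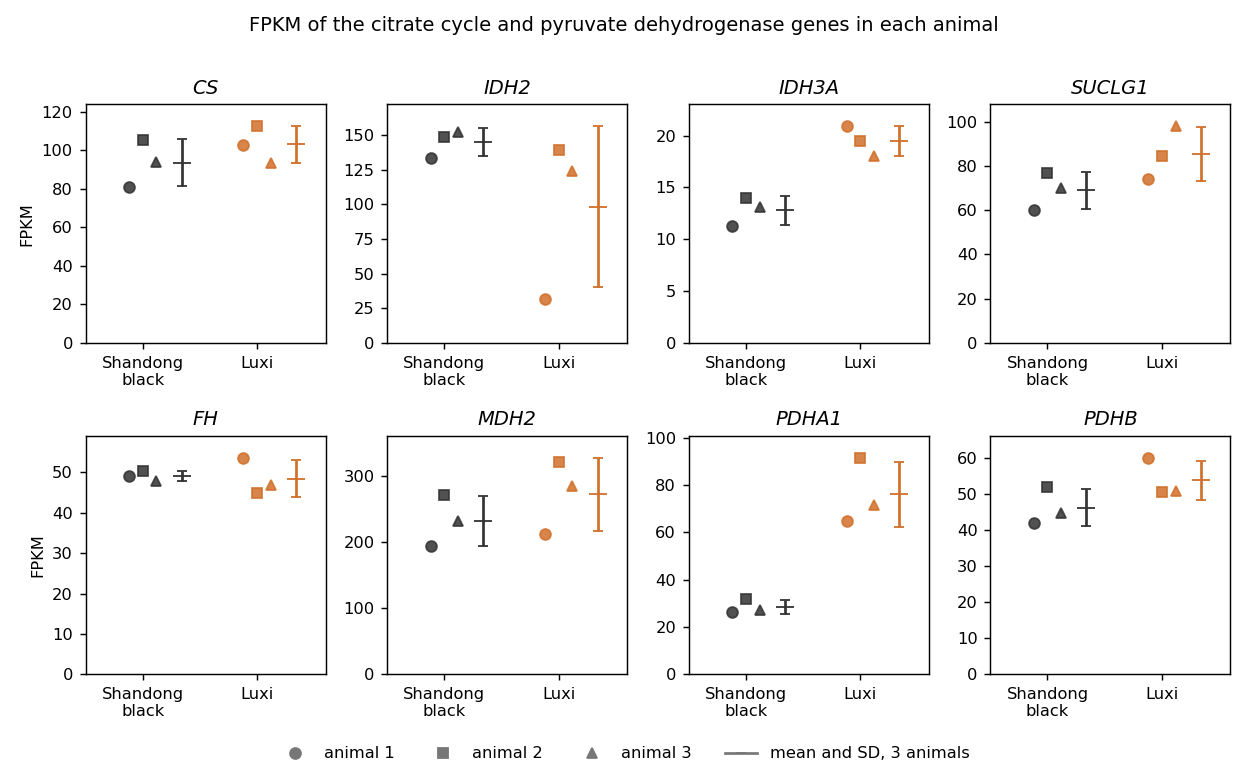
FPKM of the 8 genes in each animal (vertical axes from 0, 1 panel per gene), with the animals of each breed as points and the mean and SD of 3 animals beside them. PDHA1 lies at 26.2 to 31.7 in Shandong black and at 64.8 to 91.6 in Luxi cattle, IDH3A does not overlap either, and 1 Luxi animal stands apart for IDH2 at 32.0.

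Expressed per length, MDH2 was the most abundant of the 8 genes, with a mean of 253 FPKM over the 6 animals and a range of 194 to 321. IDH2 followed at 122, then CS at 98.2, SUCLG1 at 77.2, PDHA1 at 52.2, PDHB at 50.1, FH at 48.8 and IDH3A at 16.1 FPKM. The range of MDH2 did not overlap that of IDH2, and the highest IDH3A value, 20.9, lay below the lowest value of every other member. The other neighbours in this order overlapped in their ranges over animals. By mean FPKM, 7 of the 8 genes lay above the 95th percentile of the genes tested, and IDH3A lay at the 85.6th. Together the 8 genes made up 0.230 to 0.302% of the FPKM of all listed genes in an animal.

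The E1 component of pyruvate dehydrogenase, which decarboxylates pyruvate, is built of alpha subunits from PDHA1 and beta subunits from PDHB. PDHA1 (chrX:123763235-123786122, minus strand, 11 exons, ARS-UCD1.2) had FPKM values of 26.2, 31.7 and 27.0 in Shandong black animals 1 to 3 and of 64.8, 91.6 and 71.7 in Luxi animals 1 to 3. The lowest Luxi animal thus lay far above the highest Shandong black animal. The means were 28.3 ± 2.96 (SD, n = 3) and 76.0 ± 13.9 (SD, n = 3), a ratio of 2.69. The log2 fold change was 1.38 with a standard error of 0.24, a 95% interval of 0.82 to 1.94 and an adjusted p of 0.0344 (limma). The exact two-sided permutation test over animals gave p = 0.1, the smallest value that 3 against 3 animals allow. Leaving out 1 animal kept the fold change at 1.24 to 1.49, but the call held only where Luxi animal 1 was the one left out. The adjusted p (limma) was 0.155, 0.0660 and 0.186 without Shandong black animals 1, 2 and 3. It was 0.0184 without Luxi animal 1, and 0.0835 and 0.0869 without Luxi animals 2 and 3. With the replicate number as a block the adjusted p was 0.0591, and with no filter on FPKM 0.0509.

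The difference in PDHA1 ran along the whole transcript. The annotation gives the gene 1 transcript in these files, which held all of its FPKM, and no transcript assembled outside the annotation was added to it. In each of its 11 exons the read depth per gigabase aligned was higher in every Luxi animal than in every Shandong black animal, and the ratio of the breed means ran from 2.26 in exon 4 to 2.83 in exon 8. In exon 11, which holds 3050 of the 4162 bases, the depth was 26.1, 28.7 and 25.3 in Shandong black cattle and 65.7, 86.7 and 72.7 in Luxi cattle. No exon carried the difference alone.

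**Figure D2:**
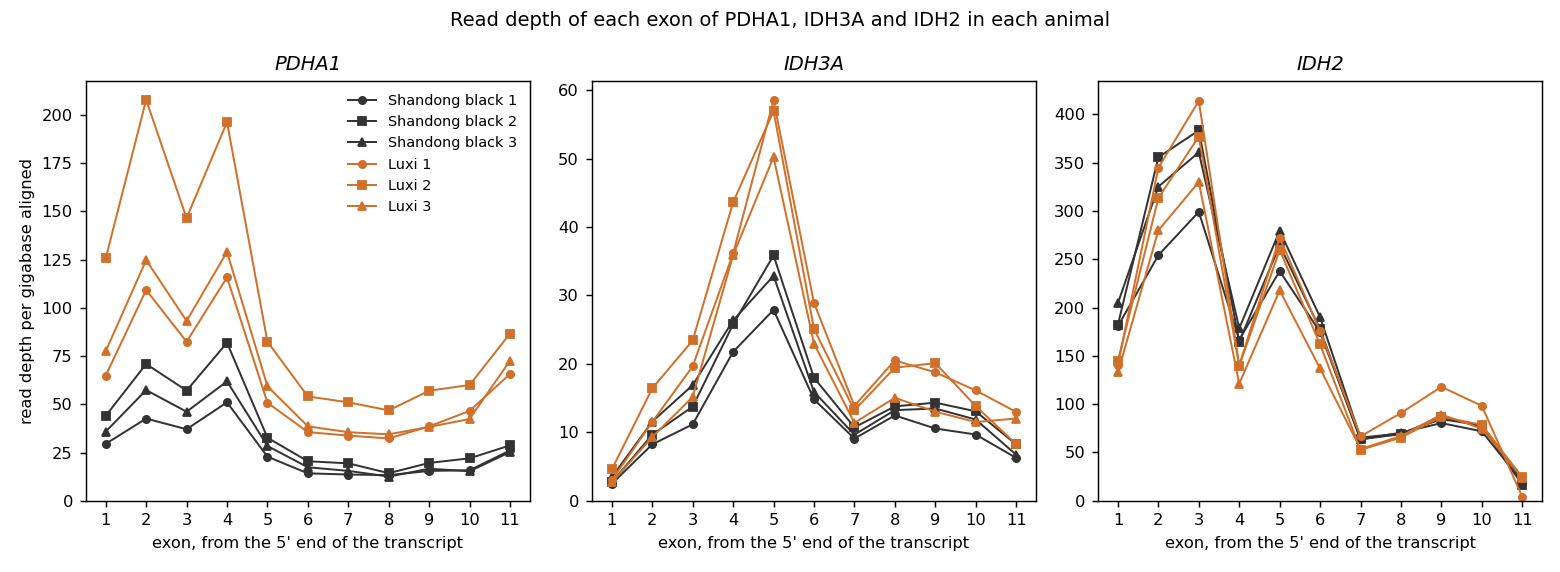
Read depth per gigabase aligned (vertical axes from 0) of each exon of PDHA1, IDH3A and IDH2, counted from the 5′ end, with 1 line per animal. All 3 Luxi lines of PDHA1 lie above all Shandong black lines in each of 11 exons, and those of IDH3A separate in 6 of 11 exons. For IDH2 all Luxi lines lie below in exons 1 and 4 and above in exon 9. In the other exons of IDH2 the breeds overlap, with Luxi animal 1 far below the rest in exon 11.

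PDHA1 is X-linked, and markers of the X chromosome differed between the breeds. XIST, the RNA made by an inactive X chromosome, had 10.7, 4.83 and 14.0 FPKM in Shandong black cattle and 0, 0 and 0.21 FPKM in Luxi cattle. The X-linked gene EIF2S3 had 39.3, 24.2 and 29.4 FPKM in Shandong black and 4.41, 7.86 and 4.68 in Luxi cattle. The labels give no sex. Breed therefore cannot be told apart from a difference in sex, or from whatever else goes with the XIST level in these 6 animals. This holds for every fold change given here. The 302 tested genes of the X chromosome had a median log2 fold change of 0.12, against 0.13 for the 9463 genes elsewhere. Of the 302, 7 were called, beside 242 of the 9463 and 2.55% of all genes tested. PDHA1 had the 4th highest fold change of the 302. The part of the X chromosome in the PDHA1 difference was not tested.

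PDHB (chr22:42918475-42923888, plus strand, 10 exons) did not share the difference of its partner. Its FPKM was 42.1, 52.0 and 44.8 in Shandong black cattle and 60.2, 50.7 and 51.0 in Luxi cattle, so the breeds overlapped. The log2 fold change was 0.22 with a 95% interval of -0.31 to 0.74 and an adjusted p of 0.604 (limma). Within each animal the ratio of PDHA1 to PDHB was 0.622, 0.610 and 0.603 in Shandong black cattle and 1.08, 1.81 and 1.41 in Luxi cattle. PDHB thus exceeded PDHA1 in every Shandong black animal, and PDHA1 exceeded PDHB in every Luxi animal. This was 1 of 14 ratios computed, all chosen after the values were seen, and the exact two-sided permutation test gave its smallest possible p of 0.1, or 0.175 after Benjamini-Hochberg adjustment over the 14.

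The other subunits of the complex are E2 (DLAT), which passes the acetyl group to coenzyme A, E3 (DLD), which re-oxidises E2, and the E3-binding protein (PDHX). DLAT was 12.9, 15.8 and 14.3 FPKM in Shandong black and 21.9, 34.7 and 24.4 in Luxi cattle, without overlap, with a log2 fold change of 0.85 (adjusted p = 0.103, limma). DLD was 16.8, 16.2 and 18.3 in Shandong black and 28.5, 44.0 and 22.3 in Luxi cattle, also without overlap, at 0.80 and an adjusted p of 0.154. Neither was called, and the log2 fold change of DLD was 1.72 with reference transcripts only and 0.54 without Luxi animal 2. PDHX was 12.9, 2.93 and 15.2 in Shandong black and 32.3, 10.5 and 30.9 in Luxi cattle, with overlap and an adjusted p of 0.288 (log2 fold change 1.26, and 0.61 without Shandong black animal 2). In both breeds animal 2 was the low one for PDHX.

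The exon entries of the files give a second reading of the same genes. Each exon has its own read depth there, and the depth over the annotated exons of a gene, from every transcript on its strand, was put on the FPKM scale in a measure chosen after the data were seen. On it PDHX was 12.4, 16.9 and 14.7 in Shandong black and 31.3, 37.2 and 29.6 in Luxi cattle, so the low values of animal 2 were not seen and the breeds did not overlap. PDHX was called on this measure (log2 fold change 1.11, adjusted p = 0.0324, limma), as was PDHA1 (1.38, adjusted p = 0.0255), beside 1.88% of 9200 genes called higher in Luxi cattle. Of the 5 subunit genes PDHA1, PDHB, DLAT, DLD and PDHX, 4 had every Luxi animal above every Shandong black animal on this measure, beside 31.0% of genes without overlap in either direction, and 3 did by the deposited FPKM. Their median log2 fold change was 0.84 here and 0.85 by the deposited FPKM. PDHB overlapped between the breeds on both, and PDHX by the deposited FPKM.

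**Figure D3:**
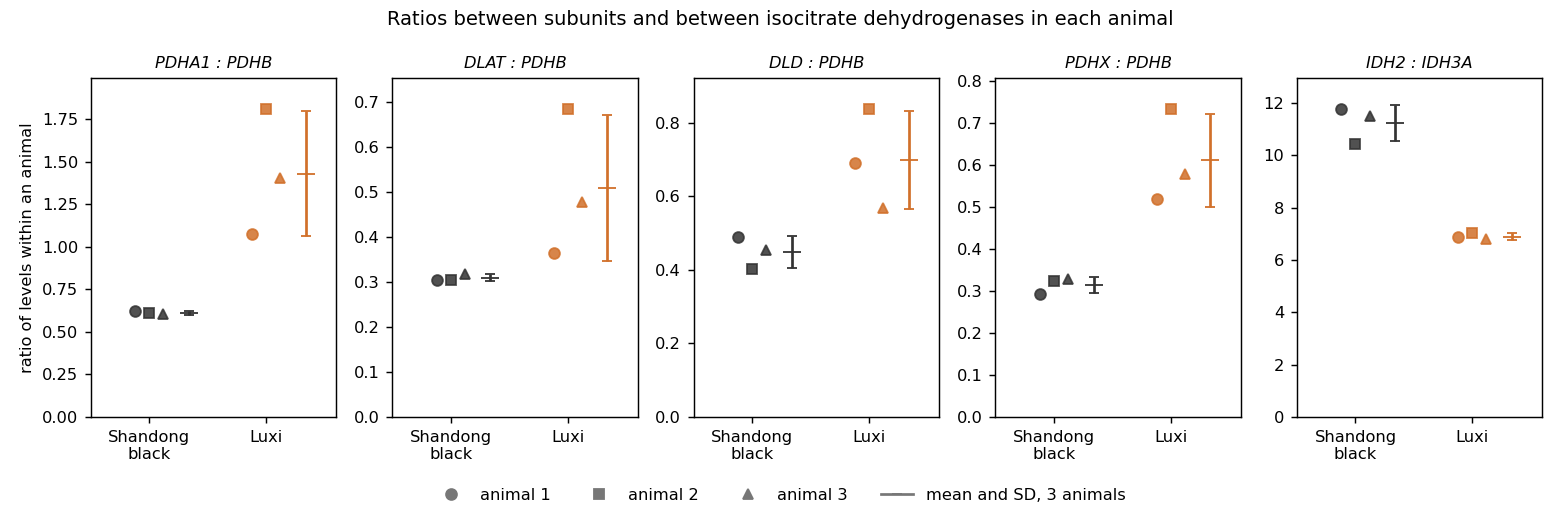
Ratios of levels within each animal (vertical axes from 0), with points for animals and the mean and SD of 3 animals per breed, by deposited FPKM for PDHA1 and DLAT and by exon depth for DLD, PDHX and the IDH2 to IDH3A ratio. The 4 ratios to PDHB are higher in every Luxi animal, and IDH2 to IDH3A runs from 10.4 to 11.8 in Shandong black and from 6.78 to 7.03 in Luxi cattle.

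Set against PDHB, PDHA1 and DLAT by deposited FPKM, and PDHX and DLD by exon depth, were higher in every Luxi animal. By deposited FPKM the ratio of PDHX to PDHB overlapped between the breeds. PDHX was 10.5 FPKM in Luxi animal 2 on that scale, and 12.9 and 15.2 in Shandong black animals 1 and 3. The ratio of DLAT to PDHB was 0.306, 0.305 and 0.318 in Shandong black and 0.364, 0.685 and 0.478 in Luxi cattle. By exon depth that of PDHX to PDHB was 0.294 to 0.328 against 0.520 to 0.733, and that of DLD to PDHB 0.402 to 0.490 against 0.569 to 0.837. PDHA1 also exceeded DLAT by more in Luxi cattle, with a ratio of 2.64 to 2.95 against 1.89 to 2.03. The Shandong black animals agreed closely in the ratios of PDHA1 and DLAT to PDHB, and the Luxi animals were spread, with animal 1 lowest and animal 2 highest.

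The kinases PDK1 to PDK4 phosphorylate and inactivate PDHA1 protein, and the phosphatases PDP1 and PDP2, with the regulatory subunit PDPR, reverse this. PDP1 was called higher in Luxi cattle, with 4.34, 4.94 and 4.11 FPKM in Shandong black and 10.1, 10.9 and 9.50 in Luxi cattle, and the log2 fold change was 1.03 (adjusted p = 0.0291, limma). The animals of a breed lay close together, but the fold change sits at the threshold of the call: it was 0.90 with size factors, 0.88 with quantile normalization and 0.99 with reference transcripts only, where PDP1 was not called, nor was it with TPM (adjusted p = 0.0655) or a replicate block (0.0591). PDP1 was called without Luxi animal 1 (adjusted p = 0.0212), and not without Shandong black animals 1 (0.135), 2 (0.0526) or 3 (0.177) or Luxi animals 2 (0.0798) or 3 (0.0761). PDPR was 4.95, 4.27 and 4.41 against 9.52, 13.0 and 7.98 FPKM, with a log2 fold change of 0.99 (adjusted p = 0.0571). PDP2 was low throughout, at 0.73 to 1.22 and 0.39 to 0.88 FPKM.

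The kinases did not share a direction. PDK4, the kinase induced by fasting in muscle, was the most abundant of the 7 regulators at 139, 419 and 217 FPKM in Shandong black and 539, 752 and 738 in Luxi cattle, with a log2 fold change of 1.52 (adjusted p = 0.121, limma). Its direction rests on assembled transcripts: with reference transcripts only the log2 fold change was -1.33 (adjusted p = 0.575). PDK1 was 9.15, 7.45 and 8.90 against 4.98, 4.50 and 5.13 FPKM (log2 fold change -0.69, adjusted p = 0.0785). PDK3, another X-linked gene, was 3.18, 3.19 and 2.49 against 1.72, 1.13 and 1.52 (-0.69, adjusted p = 0.0835). Its difference thus had the opposite sign to that of PDHA1, while that of IDH3G, also X-linked and described below, had the same sign (0.51). The 3 kinases PDK4, PDK1 and PDK3 did not overlap between the breeds and none was called, while PDK2 overlapped at 6.98 to 13.4 and 9.76 to 12.7 FPKM. Of the mitochondrial pyruvate carrier, MPC1 had the same mean of 59.6 FPKM in both breeds. MPC2 was 19.1, 25.5 and 13.7 against 6.21, 2.04 and 12.4 (log2 fold change -1.58, adjusted p = 0.137), and by exon depth its breeds overlapped (-0.53).

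**Figure D4:**
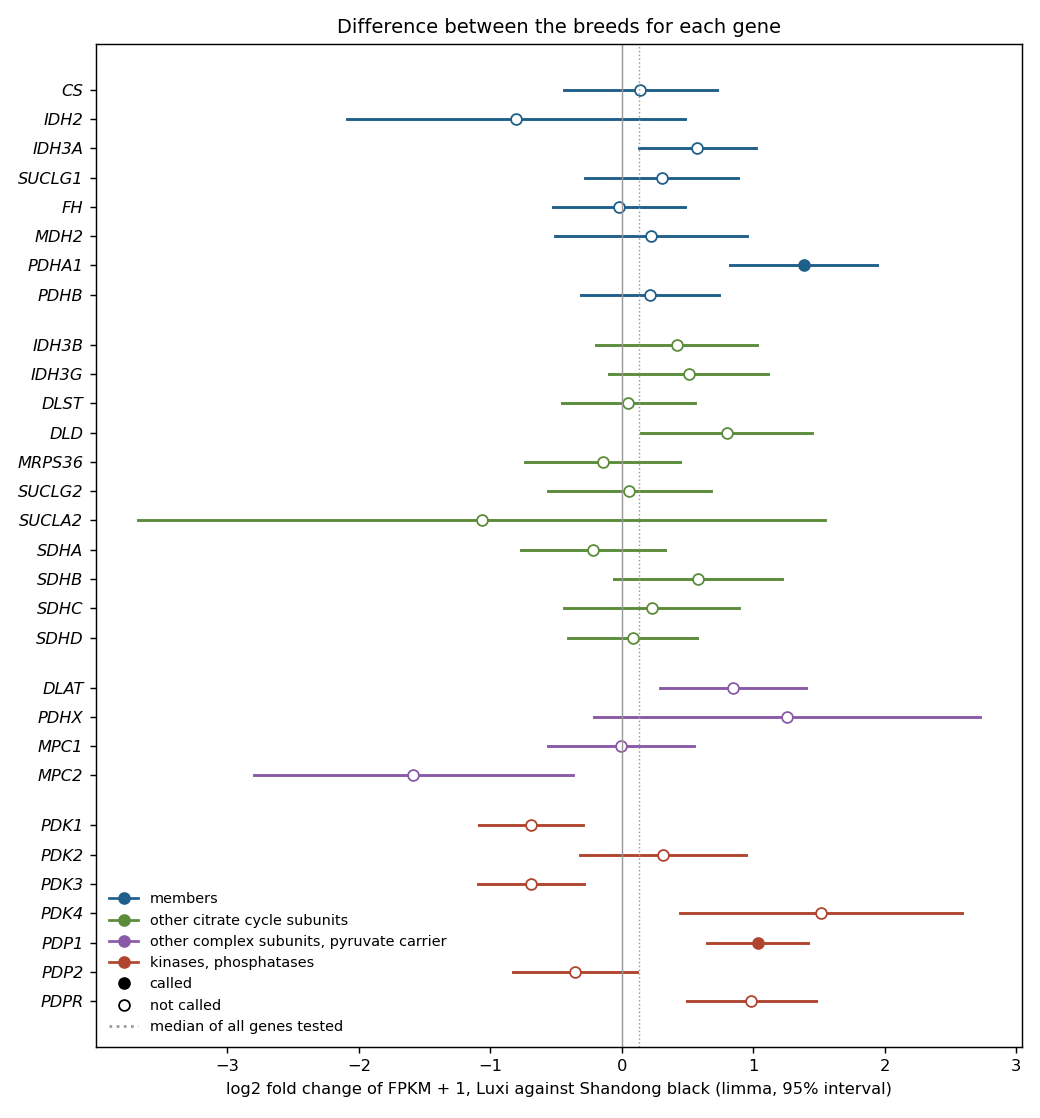
Log2 fold change of FPKM + 1 between Luxi and Shandong black cattle (horizontal axis, limma estimate as a point, 95% interval as a line) for the 8 genes and 22 other pathway genes, with called genes filled and the median of all genes dotted. PDHA1 and PDP1 are the filled points, and the widest interval is that of SUCLA2, from -3.68 to 1.55.

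Citrate synthase, encoded by CS (chr5:57042171-57065008, plus strand), catalyses the first step of the cycle and is widely used as a marker of mitochondrial content. CS was 81.0, 105 and 94.1 FPKM in Shandong black and 103, 112 and 93.5 in Luxi cattle, with overlap. Its log2 fold change was 0.14 with a 95% interval of -0.44 to 0.73, and with size factors it was -0.0157, so no direction can be given for CS. The gene has 2 transcripts, and the first held 91.0 to 97.3% of its FPKM. The ratio of PDHA1 to CS, 0.324, 0.301 and 0.287 in Shandong black and 0.630, 0.814 and 0.767 in Luxi cattle, separated the breeds.

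Isocitrate is oxidised by the NAD-dependent enzyme, with IDH3A as its catalytic subunit, or by the NADP-dependent IDH2. IDH3A (chr21:30538337-30554570, plus strand, 11 exons) was 11.3, 14.0 and 13.1 FPKM in Shandong black and 20.9, 19.5 and 18.1 in Luxi cattle. The lowest Luxi value lay above the highest Shandong black value. The means were 12.8 ± 1.40 (SD, n = 3) and 19.5 ± 1.42 (SD, n = 3), with a log2 fold change of 0.57, a 95% interval of 0.13 to 1.02 and an adjusted p of 0.141 (limma), so it was not called. Leaving out 1 animal kept it at 0.49 to 0.64. The ratio of the breed means was above 1 in all 11 exons, from 1.19 to 1.72, and every Luxi animal lay above every Shandong black animal in 6 of them. Of its partners, IDH3B was 62.3, 89.7 and 69.3 against 108, 102 and 85.3 FPKM, with overlap. The X-linked IDH3G was 31.0, 40.2 and 38.6 against 42.2, 65.7 and 51.1, without overlap. Neither was called, with adjusted p values of 0.387 and 0.293.

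IDH2 (chr21:21478221-21494525, minus strand, 11 exons) was 133, 149 and 152 FPKM in Shandong black and 32.0, 139 and 124 in Luxi cattle. One animal, Luxi 1, stood apart, and it set both the log2 fold change of -0.80 and its wide 95% interval of -2.09 to 0.48 (adjusted p = 0.422, limma). Without that animal the fold change was -0.14. Its exons did not show the low value: from their read depth the same transcript came to 146 FPKM in Luxi 1, 4.58 times the deposited FPKM, while in the other 5 animals both readings agreed to a ratio of 0.996 to 0.999. Only 4 of 7193 genes compared had a larger such ratio in that library. The other 7 members differed between the readings by at most 2.09% in any animal.

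Exon by exon, Luxi 1 was the lowest of the 6 animals in 1 of 11 exons of IDH2, the last one, which is 402 bases long. The depth of that exon was 4.15 in Luxi 1 and 16.8 to 24.4 in the other animals. In exon 3 it was 414 in Luxi 1, the highest of the 6, and 299 to 383 in the others. By exon depth IDH2 was 133, 149 and 152 FPKM in Shandong black and 146, 138 and 124 in Luxi cattle, the highest being 1.23 times the lowest. The log2 fold change on this reading was -0.08, with an adjusted p of 0.856 (limma). What made the transcript's deposited value low was not tested.

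**Figure D5:**
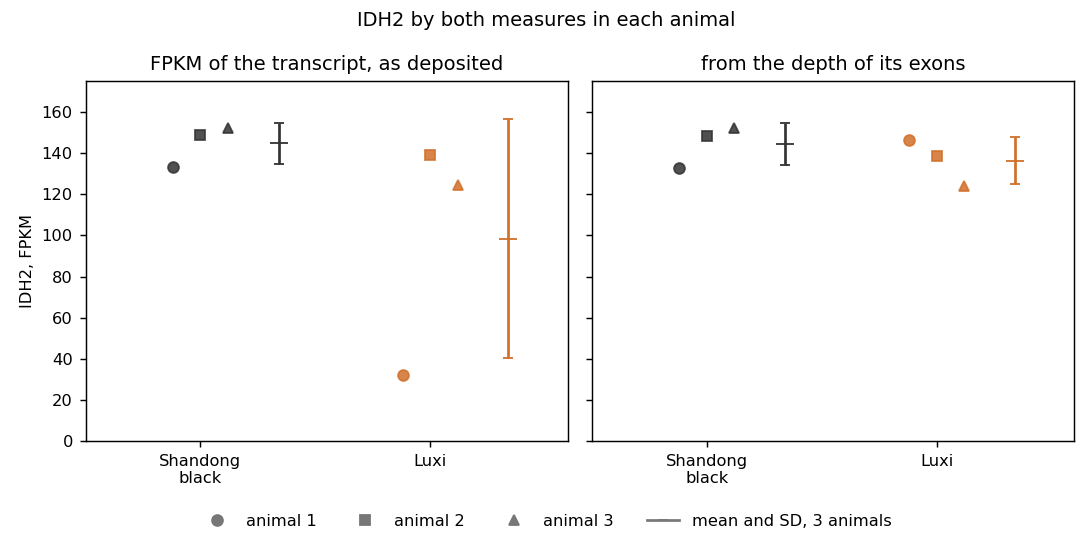
IDH2 in each animal as deposited for its transcript and as computed from the read depth of its exons (shared vertical axis in FPKM, from 0; points are animals, with mean and SD of 3 animals). Luxi animal 1 stands at 32.0 in the left panel and at 146 in the right one, and the other 5 animals keep their places.

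By exon depth the balance of the isocitrate dehydrogenases differed between the breeds. The ratio of IDH2 to IDH3A was 11.8, 10.4 and 11.5 in Shandong black and 6.86, 7.03 and 6.78 in Luxi cattle, with no overlap and little spread within a breed. IDH2 remained far above IDH3A in every animal. The exact permutation p was 0.1, the smallest possible (0.175 adjusted over the 14 ratios), and the ratio was chosen after its values were seen.

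For the 2-oxoglutarate dehydrogenase complex, whose E1 subunit is OGDH, the E2 subunit gene DLST was 44.6 ± 3.33 (SD, n = 3) FPKM in Shandong black and 46.3 ± 4.16 (SD, n = 3) in Luxi cattle, with an adjusted p of 0.913 (limma). Its E3 subunit is DLD, shared with pyruvate dehydrogenase and described above. Succinyl-CoA ligase then forms succinate, with SUCLG1 as the alpha subunit that pairs with the beta subunit SUCLG2 or SUCLA2. SUCLG1 (chr11:50516911-50551411, plus strand, 9 exons) was 60.1, 76.8 and 70.1 FPKM in Shandong black and 74.0, 84.3 and 98.0 in Luxi cattle. The breeds overlapped, with a log2 fold change of 0.30, a 95% interval of -0.28 to 0.88 and an adjusted p of 0.505.

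SUCLA2, the beta subunit that makes ATP, was also low in Luxi animal 1, but its exons did not behave like those of IDH2. It was 37.6, 51.4 and 38.3 FPKM in Shandong black and 1.63, 61.6 and 51.7 in Luxi cattle. From the exon depth of the same transcripts Luxi animal 1 came to 5.02, still far below the others, and only from that of all transcripts on the strand to 50.7. The log2 fold change was -1.07 as deposited, -0.67 from the same transcripts and 0.36 from all transcripts, and without Luxi animal 1 it was 0.42 by deposited FPKM. It was not called on any of these readings. By exon depth over all transcripts the ratio of SUCLG1 to SUCLA2 overlapped, at 1.5 to 1.84 and 1.37 to 1.90.

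Succinate dehydrogenase, which is both a cycle enzyme and complex II of the respiratory chain, had subunits with opposite signs. The flavoprotein gene SDHA was 96.5, 94.0 and 104 FPKM in Shandong black and 78.1, 87.4 and 87.3 in Luxi cattle, all Luxi animals below (log2 fold change -0.22, adjusted p = 0.612, limma). The iron-sulfur gene SDHB was 148, 196 and 168 against 253, 261 and 250, all Luxi animals above (0.58, adjusted p = 0.264). Neither was called, and the membrane anchors SDHC and SDHD overlapped.

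FH, fumarase, which hydrates fumarate to malate, was the steadiest of the 8 genes by deposited FPKM. FH (chr16:35260924-35288031, plus strand, 10 exons) was 49.0, 50.4 and 48.0 FPKM in Shandong black and 53.7, 44.9 and 46.8 in Luxi cattle, the highest being 1.19 times the lowest. Its log2 fold change was -0.02 with a 95% interval of -0.52 to 0.48, and without Luxi animal 2 it was 0.0282, so it had no settled sign. Not 1 of its 10 exons had every Luxi animal above. In exons 1, 2 and 6 every Luxi animal lay below, with ratios of the breed means of 0.61, 0.80 and 0.90. MDH2 (chr25:34254163-34266940, plus strand, 9 exons), the malate dehydrogenase that regenerates oxaloacetate, was 194, 271 and 232 FPKM in Shandong black and 213, 321 and 285 in Luxi cattle. Its breeds overlapped, with a log2 fold change of 0.22, a 95% interval of -0.51 to 0.96 and an adjusted p of 0.711 (limma). The 95% intervals of CS, SUCLG1, FH, MDH2 and PDHB all lay within a difference of 1 on the log2 scale in either direction.

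Of the 24 further genes listed for the cycle, the complex, its regulators and the carrier, 23 were tested. Of these, 1 was called (PDP1), beside 2.55% of all genes tested. Every Luxi animal lay above every Shandong black animal in 8 and below in 4, 12 of 23 beside the 29.1% of all genes, and 11 overlapped. Their median log2 fold change was 0.23, beside 0.22 for the 8 genes and 0.13 for all genes tested. With TPM, size factors, quantile normalization, a replicate block or reference transcripts only, none of the 23 was called by limma, and 9 of the 23 had an unadjusted p under 0.05 in the test as first described, beside 21.9% of all genes. The 12 tested subunits of the cycle had a median of 0.16, with none called, 2 at an unadjusted p under 0.05, 4 with every Luxi animal above and 1 (SDHA) with every Luxi animal below, 5 of 12 without overlap beside 29.1% of all genes.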

How the data were processed

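Per the file headers and the Methods, the authors used Fastp for trimming, HISAT for alignment to ARS-UCD1.2 and StringTie for the assembly of each library (1.3.3b in the headers, with a stranded setting). How reads matching several places were treated is not given in the sources used here. The authors deposited coverage, FPKM and TPM per transcript and coverage per exon. From the deposited FPKM, gene values were summed over reference transcripts and those unnamed assembled transcripts that lay on its exons, same strand, by 50% or more of their bases. The rest of the assembled transcripts held 21.9 to 30.8% of a library's FPKM and stayed out. Aligned gigabases are the ratio of coverage to FPKM. No counting error is given, since the values are not counts, and precision rests on 3 animals per breed.

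Genes reaching a mean of 1 FPKM in either breed were tested with limma 3.58.1 in R 4.3.3 (lmFit, eBayes with trend, no covariate) on log2(FPKM + 1), a scale that understates the fold change of low genes. Cuffdiff, named in the Methods, works on alignments and was not run. The procedure was tested on simulated data. Alternatives were a pseudocount of 0.1, no filter, a mean of at least 5, TPM, size factors, quantile normalization, no trend, a replicate block, reference transcripts only, a 20% share, fold thresholds of 0 and 2, and leaving out each animal. Both readings from exon coverage were added after the data were seen. Genes named are the members, called pathway genes, kinases, phosphatases, subunits without overlap, the extremes of each further list and the nearest patterns. IDH3B, DLST, SUCLA2, PDHX, SDHC, SDHD, SLC25A13, HK2 and the pyruvate carrier genes were named after their values were seen. Members and lists were chosen with earlier results of these data known. Coordinates are those of the files (ARS-UCD1.2), and 91.3% of gene names were found in a table of ARS-UCD2.0. Sequences and promoter motifs were not analysed here, and single values of 1 pathway gene are not reported here. The computation used Python 3.11.15, pandas 2.3.3 and bedtools 2.31.1.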

Additional observations from a re-analysis of the deposited data

How the results depend on the processing

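With 3 animals a breed, p-values rest on the spread between these animals, and depth, supplier and XIST level go with breed. Over 12 other settings PDHA1 kept a log2 fold change of 1.23 to 1.41 and was called in 10, at an adjusted p of 0.0245 to 0.0591 over all 12 (limma). The number of the 8 genes called was 1, and 0 with no filter on FPKM, a replicate block or a threshold of 2 on the log2 scale (0 to 1 leaving out 1 animal). That of the 23 other pathway genes was 1, and 0 with TPM, size factors, quantile normalization, a replicate block, reference transcripts only or the threshold of 2, 3 from the exon depth of the same transcripts and 2 from that of all transcripts (0 to 2 leaving out 1 animal). Over all genes tested 249 were called, 65 with no filter, 139 at a mean FPKM of at least 5, 134 with a replicate block, 162 with reference transcripts only and 65 at the threshold of 2. Leaving out 1 animal gave 3 to 591, with 3 without Shandong black animal 3, 15 without Shandong black animal 1, 48 and 86 without Luxi animals 2 and 3, and 591 without Luxi animal 1. The median of the 8 genes was 0.06 to 0.22 over the settings and 0.13 to 0.32 leaving out 1 animal, below the median of all genes (0.13) without Shandong black animal 1. CS had the opposite sign with size factors (-0.0157), and FH without Luxi animal 2 (0.0282). Leaving out 1 animal, the ranges were 0.04 to 0.23 for CS, -1.18 to -0.14 for IDH2, 0.49 to 0.64 for IDH3A, 0.20 to 0.40 for SUCLG1, -0.10 to 0.03 for FH, 0.10 to 0.39 for MDH2, 1.24 to 1.49 for PDHA1 and 0.14 to 0.30 for PDHB. The cause of these changes was not tested. Same-numbered animals are different animals, and the correlation of their deviations from the breed means was 0.0905, 0.0899 and 0.0816, each animal's highest, as a hint from the data that is not part of the design. The replicate block took PDHA1 to an adjusted p of 0.0591 and left none of the 8 genes called.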

Other observations

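Pathways that feed or drain the citrate cycle were read from further gene lists, with the same test over all genes. Of 13 genes of fatty acid beta-oxidation, 12 had a lower mean on the log2 scale in Luxi cattle. In 6 of them every Luxi animal lay below every Shandong black animal, beside 29.1% of all genes without overlap in either direction. None was called by limma, and 5 had an unadjusted p under 0.05, beside 21.9% of all genes. CPT1B, the muscle enzyme that commits fatty acids to import, had the lowest fold change, with 19.9, 20.5 and 19.8 FPKM in Shandong black and 7.74, 10.7 and 13.8 in Luxi cattle (log2 fold change -0.87, adjusted p = 0.0965). HADH was the 1 gene with a higher mean, at 0.29. The median of the list was -0.31, and with size factors -0.46.

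Of 12 genes of glycolysis, 10 had a higher mean on the log2 scale in Luxi cattle. The median of the list was 1.15 on that scale, with none called by limma. An unadjusted p under 0.05 was found for 8 of the 12, 6 higher and 2 lower in Luxi cattle, beside 21.9% of all genes. Every Luxi animal lay above every Shandong black animal in 4 and below in 2, beside 29.1% of all genes without overlap in either direction. TPI1 had 199, 336 and 249 FPKM in Shandong black and 482, 1408 and 1043 in Luxi cattle (1.80, adjusted p = 0.0951). LDHB, the lactate dehydrogenase subunit of oxidative muscle, went the other way with 224, 135 and 185 against 84.1, 18.9 and 95.8 FPKM (-1.71, adjusted p = 0.161, and -0.98 without Luxi animal 2). HK2 was the other gene with a lower mean, at 24.4, 10.5 and 20.6 against 9.15, 9.21 and 8.92 FPKM (-0.87, adjusted p = 0.159, limma). The fast fibre sum was higher in Luxi animals 2 and 3, and in Luxi animal 1 it lay within the Shandong black range. Its part in the differences of this list was not tested. Of 15 respiratory chain genes none was called (2 at an unadjusted p under 0.05, beside 21.9% of all genes). Their median was 0.33, between 0.77 for NDUFS1 and -0.29 for COX5A.

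Of 15 tested genes that supply or export cycle intermediates, 1 was called, beside 2.55% of all genes tested. The median log2 fold change of the 15 was -0.29. Every Luxi animal lay above every Shandong black animal in 3 and below in 5, beside 29.1% of all genes without overlap in either direction. SLC25A12, a mitochondrial aspartate-glutamate carrier of the malate-aspartate shuttle, had 9.72, 15.5 and 11.9 FPKM in Shandong black and 46.4, 48.9 and 27.3 in Luxi cattle (log2 fold change 1.63, adjusted p = 0.0398, limma). It was not called with no filter, TPM, size factors, quantile normalization, a replicate block or reference transcripts only, where the adjusted p ran from 0.0507 to 0.0842. Leaving out 1 animal, it was called without Luxi animal 1 (0.0416) or 3 (0.0479), and not without Luxi animal 2 (0.1) or Shandong black animals 1 (0.157), 2 (0.0595) or 3 (0.179). SLC25A13 of the same list went the other way, with 4.56, 3.36 and 4.45 against 2.32, 1.24 and 1.98 FPKM (-0.86, adjusted p = 0.0750, limma). SLC25A1, the citrate carrier that exports citrate for fat synthesis, was the lowest of the list at -1.66 (adjusted p = 0.0639), with 10.5, 4.43 and 6.90 against 1.97, 0.56 and 2.41 FPKM. By exon depth of all transcripts it was 10.5 to 12.6 against 5.47 to 6.67, a smaller difference of -0.85 (adjusted p = 0.0378), which missed the fold that a call needs. It was called with size factors, quantile normalization or a replicate block (adjusted p from 0.0402 to 0.0489). The fat cell markers were lower in Luxi cattle too, and their part in this was not tested. Among 9 regulators of mitochondrial genes none was called by limma (3 at an unadjusted p under 0.05, beside 21.9% of all genes). PPARGC1A had the highest fold change (2.19), with 1.70 to 2.07 FPKM in Shandong black and 44.5, 5.18 and 7.14 in Luxi cattle (adjusted p = 0.128; called at 1.29 and 0.0184 without Luxi animal 1), and ESRRG the lowest (-1.23).

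The gene whose profile over the 6 animals lay nearest to the mean profile of the 8 citrate cycle and pyruvate dehydrogenase genes was VDAC1, a channel of the outer mitochondrial membrane. Its root mean square difference was 0.0255 on the log2 scale among 8142 genes compared, and its FPKM was 91.2, 111 and 102 in Shandong black and 105, 132 and 130 in Luxi cattle. TFB1M, ZNF142, DVL2 and FAF2 followed. By exon depth, where IDH2 of Luxi animal 1 is not low, PLRG1 was the nearest, followed among others by MAEA, ATF7IP and ARIH1, so this order depends on the measure. The nearest gene to PDHA1 alone was LOC112447617 by deposited FPKM and SOX6 by exon depth. LOC112447617 lay near the floor, at 0 to 0.04 FPKM in Shandong black and 1.23 to 2.65 in Luxi cattle. At such levels the 1 FPKM added before taking logs weighs on the profile.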
